A study of Homo sapiens with 2 samples.

Results

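The cells described here are barcodes in which more than 10% and at most 20% of all UMIs came from genes of the mitochondrial genome. A UMI (unique molecular identifier) marks 1 captured transcript. The cells were chosen by that share among barcodes with at least 1000 UMIs and 500 genes, so the share and these limits describe the choice and are not a finding. The rule took 2818 of the 10610 barcodes that passed in the WT-labelled library, which is 26.6% (25.7% to 27.4%). It took 752 of 8588 in the FKO-labelled library, which is 8.76% (8.17% to 9.37%). Together these are 3570 of 19198 passing barcodes and of 19858 in the files. Intervals of shares and of single genes are at 95% and exact, and the error of counting is all that they cover. Those given with the median of a gene list are the medians of its genes' bounds. They are not exact intervals of that median and do not cover the spread between genes.

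The study made serotonin neurons from the human embryonic stem cell line H9, named WA09 in the labels, and compared lines with and without the transcription factor FOXA2. Both lines carried EGFP knocked in at TPH2, and the FKO line was labelled as a FOXA2 knockout as well. EGFP-positive cells were taken by FACS on day 42 and counted with the 10x Genomics 3' kit, with 1 library per genotype. The knockout reporter was built on 1 edited line. Without replicates, for which cells are no substitute, genotype, line and library cannot be told apart, and no test is given. The WT-labelled library held 123064653 UMIs, with medians of 11198 UMIs and 3426 genes per passing cell. The FKO-labelled library held 70588747 UMIs, with medians of 6759.5 UMIs and 2990 genes. Both libraries contained 21 barcodes in common, of which 6 and 2 were members in the WT-labelled and FKO-labelled library. Cells with high doublet scores were kept, since the rule does not name them.

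FOXA2 (ENSG00000125798), the targeted gene, had 4.05 CPM in the members of the WT-labelled library and 16.1 CPM in those of the FKO-labelled library, from 105 and 43 UMIs. CPM are UMIs summed over the cells of a band and scaled to the same total of UMIs outside the mitochondrial genome, so that bands and libraries can be compared. In the cells with 5% to 10% mitochondrial UMIs the values were 4.22 CPM and 28.9 CPM, and in those with at most 5% they were 13.8 CPM and 18.4 CPM. Above 20% they were 2.92 CPM and 2.33 CPM, from 13 UMIs and 1 UMI. The targeted gene was thus higher in the library labelled as its knockout in the members and in both bands below them. The reporter knockout line carries an indel that gives an early stop codon, which need not lower the transcript and cannot be read from counted 3' ends. By staining of unsorted cells at the earlier progenitor stage, the study found FOXA2 protein in WT but not in edited cells. In unedited cultures at day 42 it reported the serotonin-positive neurons as negative for FOXA2. Protein is not measured here. Whether the labels are right was not tested, and the libraries are therefore named WT-labelled and FKO-labelled.

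Mitochondria keep a small genome of their own, which encodes core subunits of the respiratory chain, both ribosomal RNAs of the organelle and its transfer RNAs. All other mitochondrial proteins come from nuclear genes whose mRNAs are in the cytosol. Serotonin neurons make serotonin with TPH2 and DDC, store it through SLC18A2 and take it up again through SLC6A4, under transcription factors such as FEV, GATA2, GATA3 and LMX1B. A limit on the mitochondrial share is a common filter in droplet data, and the comparison below asks how the cells above it differ from the cells with 5% to 10% of the same library. There were 6025 such cells in the WT-labelled library and 4406 in the FKO-labelled library.

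The median mitochondrial share of passing cells was 9.15% in the WT-labelled library and 5.56% in the FKO-labelled library, so the limit of 10% stood at 1.093 and 1.798 times the median. The members therefore adjoin the middle of the WT-labelled distribution and the upper tail of the FKO-labelled distribution. At most 5% was seen in 360 and 3167 cells, and above 20% in 1407 and 263 cells. The WT-labelled cells nearest to the lower limit had shares of 10.0018% (11208 UMIs) inside and 10.0000% (8240 UMIs) outside. At the upper limit they had exactly 20% (6635 UMIs) inside and 20.0139% (2883 UMIs) outside. The corresponding FKO-labelled cells had 10.0008% and 9.9888%, then 19.9921% and 20.0517%. Cells within 0.5 points on either side of 10% had medians of 10608 and 10837 non-mitochondrial UMIs in the WT-labelled library and 5459 and 4847 in the FKO-labelled library, inside and outside. The histogram of shares shows no gap at either limit.

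**Figure D1:**
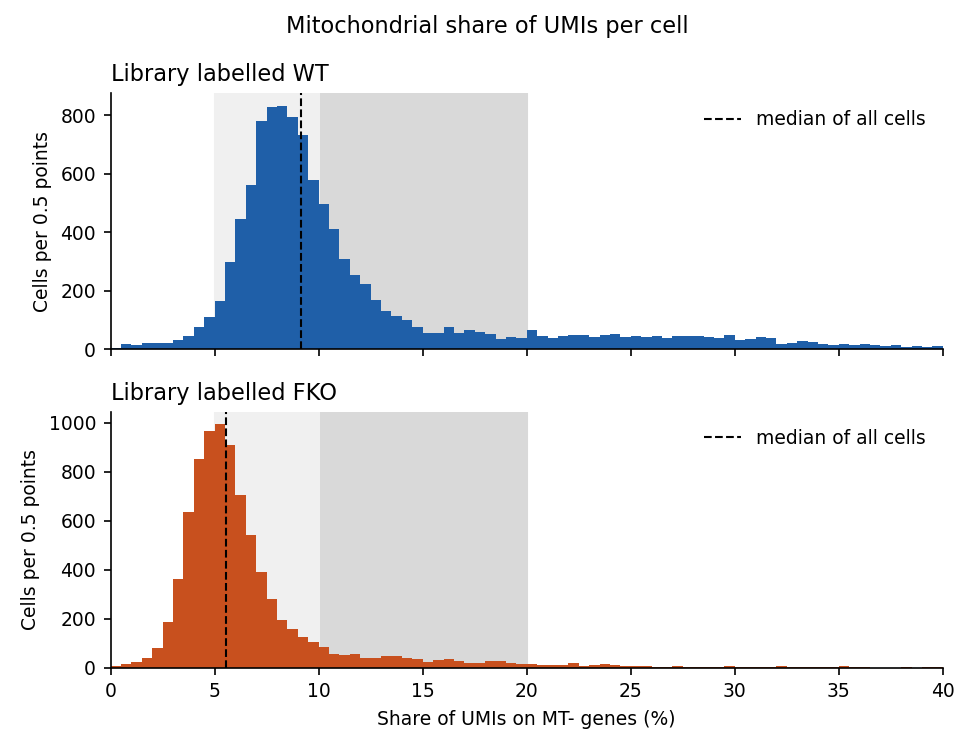
Number of passing cells (y axis) by the share of UMIs on mitochondrial genes in percent (x axis, bins of 0.5 points), for each library; the darker shading marks the members, the lighter shading the 5% to 10% cells, and the dashed line the median, at 9.15% and 5.56%. The 10% limit falls near the peak of the WT-labelled library and in the tail of the FKO-labelled library.

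The 3 genes given as markers of these cells were all present. MT-CO1, a subunit of cytochrome c oxidase, made up 6.14% of the mitochondrial UMIs of WT-labelled members and 6.45% of those of FKO-labelled members. MT-ND4, a subunit of complex I, made up 3.33% and 4.08%, and MT-CYB, the cytochrome b of complex III, 5.71% and 7.65%. Each of the 3 had a larger share of the mitochondrial UMIs at 5% to 10%, with 6.68% and 7.12% for MT-CO1, 4.12% and 5.24% for MT-ND4, and 6.03% and 8.09% for MT-CYB. The sum of these genes chose the cells, so their composition is a description only. The ribosomal RNAs MT-RNR1 and MT-RNR2 together went from 44.1% to 48.6% of mitochondrial UMIs in the WT-labelled library and from 36.99% to 39.99% in the FKO-labelled library. The 13 mRNAs went from 55.7% to 51.2% and from 62.8% to 59.9%. Among them MT-ND4 had log2 ratios of -0.31 (-0.32 to -0.30) and -0.36 (-0.39 to -0.34), and MT-ATP6, a subunit of ATP synthase, had 0.01 and 0.07. The 7 mRNAs of complex I went from 17.3% to 15.1% and from 18.7% to 17.1%. The 22 transfer RNAs held 0.173% and 0.152% of the mitochondrial UMIs of the members. When the share was counted on the 13 mRNAs alone, 199 of the 2818 WT-labelled members (7.06%) and 211 of the 752 FKO-labelled members (28.1%) were still above 10%. Comparisons by that share, chosen after seeing the data, thus take in other cells. In the WT-labelled library 1106 of the 1305 upper cells were above 20% on all mitochondrial genes, and 2325 of the 4072 lower cells were members. The FKO-labelled numbers were 179 of 390 and 530 of 1208.

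The members differed from the 5% to 10% cells in depth, and more so in the FKO-labelled library. There the median number of non-mitochondrial UMIs was 2672.5 in the members and 6637.5 in the 5% to 10% cells, a log2 ratio of -1.31, while the mitochondrial UMIs were 432.5 and 449. In the WT-labelled library the non-mitochondrial medians were 9212.5 and 11748, a log2 ratio of -0.35, and the mitochondrial medians were 1263 and 1022. A larger share thus came with fewer non-mitochondrial UMIs in both libraries, and with more mitochondrial UMIs in the WT-labelled library. Median genes per cell were 3241.5 in the members and 3742 at 5% to 10% in the WT-labelled library, and 1634.5 and 3063 in the FKO-labelled library. At an equal depth of 2000 non-mitochondrial UMIs the medians lay close together, at 1151 and 1159 genes and at 1277 and 1294 genes. This thinning left out 89 and 240 shallower members. Across cells between 5% and 20%, the rank correlation of the share with non-mitochondrial UMIs was -0.357 over 8843 WT-labelled cells and -0.380 over 5158 FKO-labelled cells. The cells of a library share its preparation, and the non-mitochondrial UMIs are part of the share itself.

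Within the members, depth went down step by step with the share. In bins of 2.5 points from 10% to 20%, the median non-mitochondrial UMIs were 10216, 8733, 5754 and 4306.5 in the WT-labelled library. They were 4149, 2491, 2116 and 1912 in the FKO-labelled library. Of the 2818 WT-labelled members 1697 lay between 10% and 12.5%, and of the 752 FKO-labelled members 293 did. MALAT1, a long noncoding RNA kept in the nucleus, took a median of 6.46%, 7.26%, 10.3% and 15.6% of the non-mitochondrial UMIs of a cell in these WT-labelled bins. Its FKO-labelled medians were 8.90%, 14.1%, 15.3% and 16.2%. At 5% to 7.5% the MALAT1 medians were 6.32% and 5.86%, and more than 2-fold that percentage was reached in the last WT-labelled bin and in the FKO-labelled bins from 12.5%. The plot of depth by share shows the decline in non-mitochondrial UMIs beside mitochondrial UMIs that change far less.

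**Figure D2:**
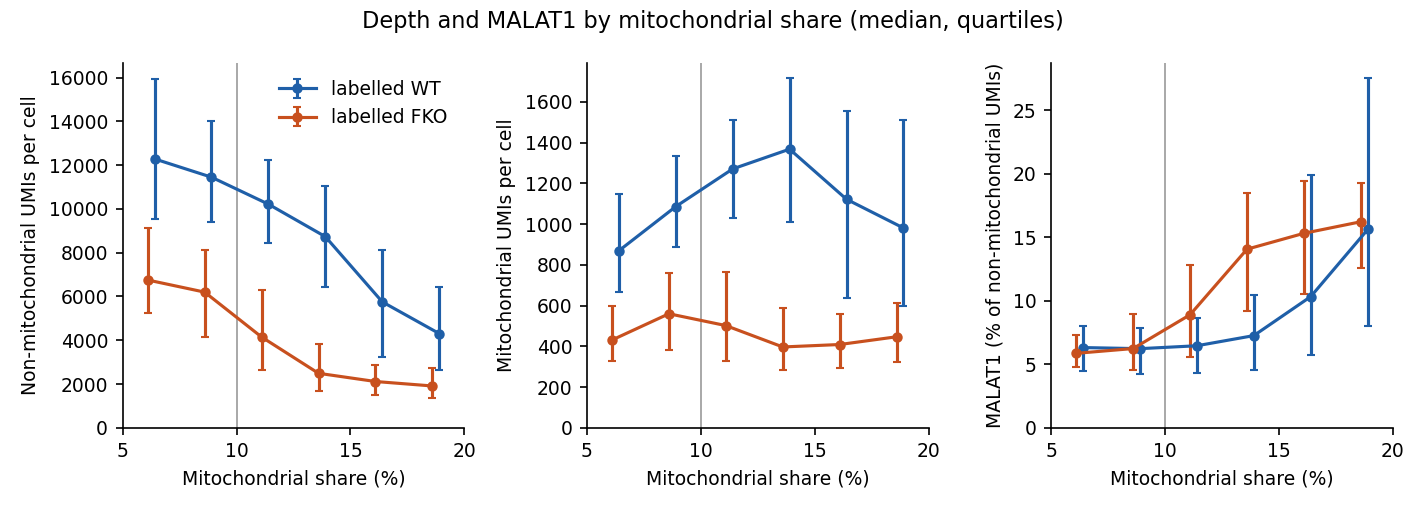
Median (points) and quartiles (bars) over cells of the non-mitochondrial UMIs per cell, the mitochondrial UMIs per cell and MALAT1 as a percentage of non-mitochondrial UMIs (y axes), by mitochondrial share in percent (x axis, 6 bins of 2.5 points), for each library; the vertical line marks 10%. Non-mitochondrial UMIs reach 4306.5 and 1912 in the last bin, where MALAT1 is at 15.6% and 16.2%.

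Genes were compared as the log2 ratio of CPM in the members over the 5% to 10% cells, and a gene is called higher or lower from 1.5-fold. The comparison used genes with at least 10 CPM in either band. In the WT-labelled library 32 of 8629 tested genes (0.371%) were higher and 19 (0.220%) were lower, with a median log2 ratio of 0.00 over all tested genes. In the FKO-labelled library 1259 of 10490 genes (12%) were higher and 463 (4.41%) were lower, with a median of 0.08. Genes may pass the minimum through the band in which they are higher. With at least 10 CPM in both bands, chosen after seeing the data, 722 of 9442 FKO-labelled genes (7.65%) were higher and 380 (4.02%) lower, and 25 and 11 of 8295 in the WT-labelled library. The members of the WT-labelled library thus had nearly the profile of their neighbours, and those of the FKO-labelled library did not. Of the 8482 genes tested in both, 4 (0.0472%) were higher in both and 4 (0.0472%) were lower in both. The log2 ratio had the same sign in 66.1% of them, and its Pearson correlation across these genes, which are not independent replicates, was 0.378. The higher genes were 73.1% of those called in the FKO-labelled library. That part became 57.2% when the median gene ratio was set to 0 and 84.7% when MALAT1 and the ribosomal protein genes were left out of the totals. It was 59.0% among members above 15%, 48.2% with a minimum of 50 CPM, 79.7% with no minimum other than 3 UMIs, 91.2% with a fold of 2 and 55.0% with the share counted on the 13 mRNAs. Among WT-labelled calls that part was 62.7%. It was 75% with weighting to the members' depth, 81.5% with every cell weighted equally, 82.4% against cells with 7.5% to 10%, 80.2% among members above 15%, 73.3% with a minimum of 50 CPM and 50% with a fold of 2.

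Because the limit of 10% lies at different points of the libraries' own distributions, the upper part of the WT-labelled members was also compared alone. Of the 9041 genes tested for the 535 WT-labelled members above 15%, 841 (9.30%) were higher and 207 (2.29%) were lower than in the 5% to 10% cells. Limits at the same multiples of the median share as in the FKO-labelled library, chosen after seeing the data, gave 1454 WT-labelled cells with 2198 genes higher and 1269 lower. Of these cells 1101 were above 20%, and 2465 of the 5034 cells they were compared with were members, so this is largely a comparison of other cells. Between 10% and 15%, 32 of 8581 genes were higher and 21 lower for 2283 WT-labelled members, and 1053 of 10462 were higher and 359 lower for 507 FKO-labelled members. The libraries' numbers of calls also depend on the UMIs behind them, since the summed non-mitochondrial UMIs of the members were 25947271 and 2672572. With the WT-labelled counts thinned at random to the FKO-labelled totals, chosen after seeing the data, 146 of 8762 genes were higher and 98 lower. Of the FKO-labelled calls, 1245 of 1259 and 456 of 463 had intervals that left out 0. So did 141 of 146 and 81 of 98 of the thinned WT-labelled calls. These intervals cover counting only and say nothing of differences between cells. With a minimum of 50 CPM the FKO-labelled calls were 221 higher and 237 lower of 4281.

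RNA kept in the nucleus had values above 0 in the members of both libraries. The nuclear-retained list held MALAT1 and 11 other long noncoding RNAs. Its median log2 ratio in the FKO-labelled library was 0.66 (0.53 to 0.72), and 6 of the 10 tested genes were higher, against 12% of all genes. With the minimum in both bands 5 of 9 were higher, against 7.65%. The WT-labelled median was 0.18 (0.07 to 0.29), with 9 of 9 tested genes above 0 and none called. MALAT1 (ENSG00000251562) was counted at 74907 CPM in the WT-labelled members and 61219 CPM at 5% to 10%, and at 100114 CPM and 59980 CPM in the FKO-labelled library. NEAT1, the scaffold of paraspeckles, rose from 175.9 to 328.9 CPM in the FKO-labelled library, and had 34.5 and 30.5 CPM in the WT-labelled members and their neighbours. MIAT, also a nuclear noncoding RNA, rose from 332.1 to 536.2 CPM in the FKO-labelled library and stood at 156.6 CPM against 115.4 CPM in the WT-labelled library. TUG1 was the exception in the FKO-labelled library, at 138.4 CPM against 154.7 CPM. Above 15% the list's median was 0.85 in the WT-labelled and 1.12 in the FKO-labelled library, with 7 of 9 and 9 of 11 tested genes higher, against 841 of 9041 and 2666 of 10645 of all genes. When the 5% to 10% cells were weighted to the members' depth, it was 0.12 and 0.28. This left 2 of the 6 FKO-labelled calls, NEAT1 and LINC-PINT, among 10 tested genes, against 941 of 10538 of all genes higher. MALAT1, KCNQ1OT1, MIAT and FTX then stood at 0.23, 0.40, 0.26 and 0.32. Between 10% and 15% the list's median was 0.03 in the WT-labelled library and 0.45 in the FKO-labelled library, so the WT-labelled value came mostly from the upper members.

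The nuclear genes of the respiratory chain showed values in the other direction. All 47 genes of that list were tested, and their median log2 ratio in the FKO-labelled library was -0.42 (-0.53 to -0.30), with 43 below 0 and 9 lower by the call, against 4.41% of all genes. Its WT-labelled median was -0.05 (-0.09 to -0.03), with 38 below 0 and none called. ATP5F1E, a subunit of ATP synthase, fell from 1472 to 843.0 CPM in the FKO-labelled library, and had 2678 and 2868 CPM in the WT-labelled members and their neighbours. CYCS, the cytochrome c that carries electrons to complex IV, fell from 286.4 to 166.5 CPM in the FKO-labelled library, against 294.6 and 349.5 CPM. With weighting to the members' depth the FKO-labelled median was -0.18 and no gene of the list was lower, against 322 of 10538 of all genes. The difference was thus smaller at matched depth. Above 15% the list's median was -0.43 in the WT-labelled library and -0.88 in the FKO-labelled library, and 3 and 36 of the 47 genes were lower, against 207 of 9041 and 1849 of 10645 of all genes.

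Other nuclear genes of the organelle had mixed values. Genes of mitochondrial transcription and RNA handling had medians of -0.05 over 8 tested genes in the WT-labelled and 0.11 over 10 in the FKO-labelled library. SLIRP, which binds mitochondrial mRNAs, was the only call among them, from 182.9 to 120.1 CPM in the FKO-labelled library, where 4.41% of all genes were lower, and it was not called with weighting to the members' depth (-0.41). The list of mitochondrial quality control, with 11 genes tested in each library, had medians of -0.02 and -0.28. BNIP3, a mitophagy receptor induced by low oxygen, was its only call in both libraries, where 0.220% and 4.41% of all genes were lower. It fell from 208.8 to 131.0 CPM and from 93.9 to 60.6 CPM, the latter not called with weighting to the members' depth (-0.57). PINK1, the kinase that marks damaged mitochondria, had 58.7 CPM in the WT-labelled members and 59.5 CPM at 5% to 10%, and 63.2 and 76.6 CPM in the FKO-labelled library. Nuclear copies related to MT-RNR2, the MTRNR2L genes, stayed below the minimum in both libraries, at no more than 1.27 CPM.

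Glycolytic genes had lower values in the WT-labelled members. Their median log2 ratio was -0.29 (-0.35 to -0.18) over 18 tested genes, with 14 below 0, and it was -0.12 (-0.29 to 0.07) in the FKO-labelled library. It was no longer below 0 in the WT-labelled library when the share was counted on the 13 mRNAs (0.09) or the limits were set at the same multiples of the median (0.01), both chosen after seeing the data. ENO1, which makes phosphoenolpyruvate, was the only call, in the WT-labelled library, where 0.220% of all genes were lower. It fell there from 785.6 to 484.4 CPM, a log2 ratio of -0.70 (-0.73 to -0.67). It had 247.3 CPM in the FKO-labelled members and 260.9 CPM at 5% to 10%. Over the whole range of the WT-labelled library, ENO1 went from 1211 CPM at or below 5% to 1001 CPM at 5% to 7.5%, 643.0 CPM at 7.5% to 10% and 471.0 CPM at 10% to 12.5%, and lay between 502 and 586 CPM above that. The difference was therefore largest below the limit that defines the members. TPI1, another glycolytic enzyme, had 396.7 CPM in the WT-labelled members against 531.7 CPM.

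Abundant mRNAs of the cytosol had lower values in the FKO-labelled members. The list of 20 such genes had a median of -0.40 (-0.44 to -0.35) there, with 5 lower, against 4.41% of all genes, and of -0.08 (-0.09 to -0.07) with no call in the WT-labelled library. Weighting to the members' depth gave -0.25 with 4 lower in the FKO-labelled library, against 322 of 10538 of all genes. TMSB4X and TMSB10, both small proteins that bind actin monomers, fell from 8803 to 4332 CPM and from 7393 to 3733 CPM in the FKO-labelled library. WT-labelled members had 12758 CPM of TMSB4X and 11887 CPM of TMSB10, against 13488 and 13171 CPM. The 82 tested ribosomal protein genes had medians of -0.02 and -0.01, with no call in either library. The sign was not stable, since the FKO-labelled median was 0.22 with weighting to the members' depth and -0.55 with every cell weighted equally, and the WT-labelled median was 0.02 between 10% and 15% and 0.00 with MALAT1 and these genes out of the totals. Above 15% their medians were -0.39 and -0.63, and 5 and 51 of the 82 were lower, beside the 207 of 9041 and 1849 of 10645 lower genes of all.

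The ratios also differed with the size of a gene. Lengths came from an annotation that matched 99.7% of the tested genes in the WT-labelled and 99.4% in the FKO-labelled library. The FKO-labelled median log2 ratio was -0.07 for genes that span less than 10 kb and 0.17 for genes that span more than 300 kb. By the merged length of the exons it was -0.06 below 1 kb, -0.23 between 1 and 2 kb and 0.22 above 8 kb. By span, the WT-labelled medians were -0.01 and 0.03 for all members, and -0.17 and 0.34 for those above 15%. With weighting to the members' depth the FKO-labelled medians were -0.05 and 0.06 by span and, from 1 to 2 kb and above 8 kb of exons, -0.11 and 0.11, so the range was narrower at matched depth.

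Serotonergic genes did not move alike in the libraries. All 14 genes of the list were tested in the FKO-labelled library, where the median log2 ratio was -0.34 (-0.60 to -0.10), and 5 were lower, against 4.41% of all genes. Of these genes 13 were tested in the WT-labelled library, with a median of 0.06 (0.04 to 0.10). GATA2 alone was called there, as higher, against 0.371% of all genes. FEV (ENSG00000163497), the transcription factor that sets serotonergic identity, had 1817 CPM in the WT-labelled members and 1743 CPM at 5% to 10%. It fell from 957.6 to 550.8 CPM in the FKO-labelled library, a log2 ratio of -0.80. Over 11 alternatives this ratio ran from -1.15 to -0.49, the latter short of the call. GATA3, which acts with FEV, fell from 830.4 to 552.3 CPM in the FKO-labelled library, and had 735.2 CPM against 661.6 CPM in the WT-labelled library. MAOB, which degrades amines, fell from 139.8 to 80.1 CPM in the FKO-labelled library and had a log2 ratio of 0.00 from 200.1 CPM in the WT-labelled library. PTS and QDPR, which make and recycle the cofactor of TPH2, fell from 108.0 to 69.2 CPM and from 76.8 to 47.1 CPM in the FKO-labelled library. Of the genes of serotonin transport, SLC18A2 had 71.5 CPM in the FKO-labelled members against 49.8 CPM (log2 ratio 0.52, 0.30 to 0.74). SLC6A4 had 47.9 CPM against 42.3 CPM, with an interval of the log2 ratio from -0.09 to 0.44 and a value of -0.19 with weighting to the members' depth. That weighting gave a median of -0.41 for the list in the FKO-labelled library and left MAOB, PTS and QDPR, at -0.55, -0.41 and -0.41, below the call, and against cells with 7.5% to 10% it was -0.01.

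TPH2 (ENSG00000139287), the gene of the reporter, had 294.7 CPM in the WT-labelled members and 217.2 CPM at 5% to 10%, a log2 ratio of 0.44 (0.40 to 0.48). The FKO-labelled values of TPH2 were 130.6 and 159.3 CPM (log2 ratio -0.29, -0.45 to -0.13). Neither ratio reached the call. GATA2, a transcription factor upstream of FEV, rose from 26.7 to 49.4 CPM in the WT-labelled library and had 34.0 CPM against 38.8 CPM in the FKO-labelled library. Across the WT-labelled bins from 5% to 20%, TPH2 stood at 190.2, 235.1, 289.5, 335.6, 276.0 and 220.0 CPM, and GATA2 at 21.8, 29.9, 49.4, 52.9, 47.3 and 36.7 CPM. Both were thus highest between 12.5% and 15%, in the middle of the members' range. With limits at the same multiples of the median share, which mostly compare cells above 20% with the members and their neighbours, GATA2 had a log2 ratio of -0.47 and the serotonergic list a median of -0.05.

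The share of cells with a UMI depends on depth, so every cell was also thinned to 2000 non-mitochondrial UMIs, which left out 89 WT-labelled and 240 FKO-labelled members. FEV was then found in 89.6% (88.4% to 90.7%) of WT-labelled members and 91.1% of the 5% to 10% cells, and in 53.9% (49.5% to 58.3%) and 76.2% in the FKO-labelled library. Before thinning these were 96.2% and 98.6%, and 56.4% and 89.4%. TPH2 was found in 36.8% and 30.1% of thinned WT-labelled cells and in 19.5% and 22.7% of thinned FKO-labelled cells, against 69.8%, 73.5%, 27.9% and 50.1% unthinned. The loss of cells with a TPH2 UMI seen without thinning was thus largely absent at equal depth, and that of FEV in the FKO-labelled library was not. Cycling cells held FEV in 29.8% of 47 WT-labelled and 30.9% of 97 FKO-labelled thinned cells, and in 95.7% and 66.7% before thinning. TPH2 was in 0 of 47 and in 6.19% of 97 after thinning, and in 34.0% and 32.3% before it. How many of these UMIs were free RNA is not known, since the files hold no barcodes below 500 UMIs, so these shares are read as background only. Median depth before thinning was 20300 and 11611 non-mitochondrial UMIs in the cycling cells, against 9212.5 and 2672.5 in the members. Absence of a UMI from so shallow a cell does not mean absence of the transcript.

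General neuronal genes had medians below 0 in the members of both libraries. Of the 18 genes, 17 were tested in the WT-labelled library with a median of -0.10 (-0.12 to -0.06), 12 below 0, 5 above 0 and no call. All 18 were tested in the FKO-labelled library, with a median of -0.41 (-0.50 to -0.34), 15 below 0 and 2 lower, against 4.41% of all genes. With weighting to the members' depth the FKO-labelled median was -0.30 and 1 was lower, against 322 of 10538 of all genes. GAP43, a protein of growing axons, fell from 2342 to 1123 CPM in the FKO-labelled library and had 1761 CPM against 1981 CPM in the WT-labelled library. NEFL, a neurofilament chain, fell from 912.1 to 588.6 CPM and had 530.3 CPM against 694.8 CPM, but its log2 ratios were -0.13 and -0.16 with that weighting, so its call did not hold at matched depth. SYT1, SYP and TUBB3 were above 0 in the FKO-labelled library. SYT1, the calcium sensor of synaptic vesicles, had 3115 CPM against 2978 CPM there, a log2 ratio that was -0.16 with that weighting, and 2742 CPM against 2341 CPM in the WT-labelled library. SYP, a membrane protein of these vesicles, had 263.0 CPM against 201.8 CPM and 135.9 CPM against 125.0 CPM. STMN2, a neuronal regulator of microtubules, was found in 98.9% of thinned WT-labelled members and 98.3% of their neighbours, and in 91.6% (88.9% to 93.9%) and 96.3% (95.6% to 96.8%) in the FKO-labelled library. Without the glial marker cells described below the FKO-labelled shares were 98.4% and 98.2%. It was found in 55.3% and 62.9% of thinned cycling cells.

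Synaptic genes that span long stretches of the genome were listed apart from genes of secretory granules. The long synaptic list had medians of 0.03 (-0.02 to 0.12) over 13 tested genes in the WT-labelled and 0.14 (-0.06 to 0.37) over 18 in the FKO-labelled library. There 2 were higher and 1 was lower, against 12% and 4.41% of all genes. The lower gene, KCNQ3, passed the minimum at 5% to 10% only. With the minimum in both bands 2 of 17 were higher and 0 lower, against 7.65% and 4.02%. GRIA2, a glutamate receptor subunit, rose from 272.9 to 416.8 CPM in the FKO-labelled library and had 122.1 CPM against 110.6 CPM in the WT-labelled library. With weighting to the members' depth its FKO-labelled log2 ratio was 0.12, and the list's median was 0.08. No gene of the list was then called, against 941 higher and 322 lower of 10538 of all genes. It was 0.30 (0.11 to 0.53) without the glial marker cells described below, with 17 of 18 above 0 and 4 higher, against 12%, and the granule list's median was 0.40 (0.32 to 0.55). The granule list had medians of 0.10 (0.07 to 0.13) and 0.22 (0.13 to 0.35) over 9 tested genes in each, the latter 0.07 with weighting to the members' depth. CHGA, a core protein of dense-core granules, rose from 89.97 to 140.9 CPM in the WT-labelled library and had 61.7 CPM against 53.2 CPM in the FKO-labelled library. Above 15% the medians were 0.46 and 0.49 for the long synaptic genes and 0.54 and 0.57 for the granule genes.

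**Figure D3:**
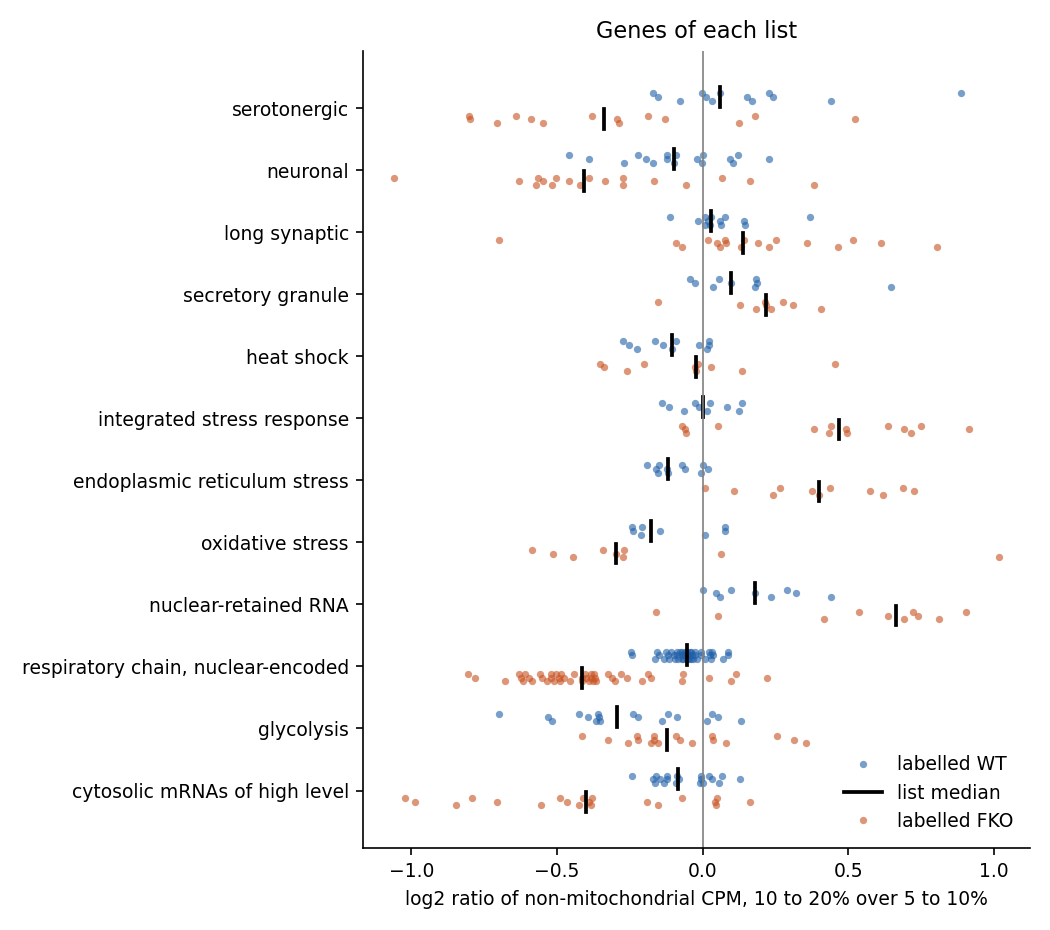
Each point is a tested gene, placed by its log2 ratio of non-mitochondrial CPM in the members over the 5% to 10% cells (x axis), by list (y axis) and library (colour); black bars mark list medians. Of the 12 lists drawn, the FKO-labelled medians run from -0.42 for the respiratory chain to 0.66 for nuclear-retained RNA, and the WT-labelled medians from -0.29 to 0.18; the other lists are not drawn.

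Stress genes differed by list and by library. Over the 6 stress lists 56 genes were tested in the WT-labelled library, with a median of -0.06 and 1 higher, against 0.371% of all genes. For the FKO-labelled library 60 were tested, with a median of 0.13, 12 higher and 1 lower, against 12% and 4.41% of all genes. Among FKO-labelled cells other than the glial marker cells described below, 6 of 57 were higher and 3 lower, against 12% and 6.27%. With every cell weighted equally 7 of 60 were higher, against 2150 of 10585 of all genes, so the excess of higher genes was present in neither. It was present with weighting to the members' depth, where 15 of 60 were higher and 0 lower, against 941 and 322 of 10538. The chaperones of the endoplasmic reticulum had opposite directions in the libraries. FKO-labelled ratios were above 0 in 11 of 11, with a median of 0.40 (0.26 to 0.52) and 3 higher, and in the WT-labelled library 9 of 11 were below 0, with a median of -0.12 (-0.16 to -0.03). MANF, a secreted factor of that compartment, rose from 80.2 to 132.8 CPM in the FKO-labelled library and had 120.3 CPM against 126.4 CPM in the WT-labelled library. HSPA5, its main chaperone, had 256.7 CPM against 197.8 CPM and 156.7 CPM against 173.8 CPM. Among WT-labelled members above 15% the median of the list was 0.27, with 10 of 11 genes above 0. That list's direction in the WT-labelled library thus did not hold above 15%. With every cell weighted equally its WT-labelled median was -0.01, with 5 genes above 0 and 6 below 0. Weighting to the members' depth gave a WT-labelled median of -0.05, with 1 above 0 and 10 below 0. With the share counted on the 13 mRNAs, which takes mostly cells above 20% in the WT-labelled library, the list's median was 0.80 there and -0.09 in the FKO-labelled library.

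Targets of the integrated stress response had a median of 0.47 (0.16 to 0.77) in the FKO-labelled library, where 5 of 14 tested genes were higher, against 12% of all genes, and of 0.00 over 10 genes in the WT-labelled library. Of the 5, ASNS and CEBPB passed the minimum in the members only, and 3 of 12 were higher with the minimum in both bands, against 7.65%. The FKO-labelled median was 0.18 with 2 of 14 higher when every cell was weighted equally, against 2150 of 10585 of all genes. Above 15% it was 0.09 with 3 of 13 higher and 1 lower, against 2666 and 1849 of 10645, so the list held no excess of higher genes in these settings. The excess was present with weighting to the members' depth, where the median was 0.44 and 6 of 14 were higher, against 941 of 10538. Without the glial marker cells 4 of 14 were higher, against 12%. The list's median was -0.13 with the share counted on the 13 mRNAs. DDIT4, an inhibitor of growth signalling, rose from 28.7 to 48.3 CPM, but had log2 ratios of 0.11 with every cell weighted equally and -0.42 above 15%. ATF4, the transcription factor of the response, had 89.4 CPM against 93.8 CPM in the FKO-labelled library and 75.4 CPM against 74.6 CPM in the WT-labelled library. Immediate early genes had medians of 0.01 over 9 and 0.21 over 10 tested genes. JUN rose from 56.5 to 85.7 CPM in the WT-labelled library, which was not called with weighting to the members' depth (0.41). EGR1 rose in the FKO-labelled library, with a log2 ratio of 0.98, and the other call there, NR4A1, passed the minimum in the members only. Without the glial marker cells the list had no gene higher and a median of 0.01, with EGR1 at 0.48. Heat shock genes had medians of -0.11 and -0.02 and no call. The p53 list had medians of 0.15 over 7 and 0.23 over 6 genes, with CDKN1A, a brake on the cell cycle, as the only call, where 12% of all genes were higher, from 11.4 to 19.8 CPM in the FKO-labelled library (log2 ratio 0.80, but 0.14 with every cell weighted equally and below 0 above 15%). Oxidative stress genes had medians of -0.18 over 8 and -0.30 over 9 genes. TXN, or thioredoxin, fell from 443.0 to 294.8 CPM in the FKO-labelled library, and was at -0.23 with weighting to the members' depth. NQO1, the only higher gene of the list, passed the minimum in the members only, and had a log2 ratio of -0.02 without the glial marker cells.

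Part of the FKO-labelled result moved with S100B and SOX10, 2 genes of the glia list. The glia list holds 7 genes, of which 3 were tested there, with 2 higher, against 12% of all genes, and a summed level of 114.4 CPM at 5% to 10% and 313.6 CPM in the members. Its median log2 ratio of 1.93 turned to -0.12 with no minimum other than 3 UMIs and to -0.58 with the share counted on the 13 mRNAs. S100B (ENSG00000160307), the most abundant, rose from 61.6 to 235.7 CPM, and SOX10, a transcription factor of neural crest and oligodendrocyte lineages, rose from 12.3 to 47.1 CPM. MBP had 19.8 CPM against 28.1 CPM. The summed level in the WT-labelled library was 33.8 CPM against 30.2 CPM, 1 gene was tested, and SOX10 had 0.0385 CPM against 0.

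Cells with at least 2 UMIs over S100B and SOX10 were therefore counted, a limit chosen after seeing the data. These are the genes of the list that rose, while MBP did not, so the counts repeat that rise and are no separate evidence of glia. The name glial marker cells refers to these 2 genes only, and whether the cells are glia was not tested. COL1A2 and VIM also had lower values in the FKO-labelled members without these cells, as given below. They were 70 of the 752 FKO-labelled members, or 9.31% (7.33% to 11.6%), and 210 of the 4406 cells at 5% to 10%, or 4.77%. In the WT-labelled library they were 27 of 2818, or 0.958%, and 39 of 6025, or 0.647%. High doublet scores were held by 5 of the 70 and 43 of the 210 FKO-labelled marker cells. In the WT-labelled library 3 of the 27 and 5 of the 39 held them. The FKO-labelled marker cells were concentrated at the lower limit, with 11.3% of cells at 7.5% to 10%, 17.1% at 10% to 12.5% and 5.14% at 12.5% to 15%. They were deeper than the other members, with a median of 6125.5 against 2509 non-mitochondrial UMIs, and held 18.0% of the members' non-mitochondrial UMIs. TPH2 was at 31.1 CPM in them and 152.5 CPM in the other members, and FEV at 178.4 and 632.8 CPM. In the WT-labelled members TPH2 was at 408.2 CPM in the marker cells and 293.4 CPM in the others, and FEV at 1937 and 1816 CPM. SOX10 was found in 74.3% of the FKO-labelled and in 0 of the 27 WT-labelled marker cells among members, so the limit rests on S100B alone in the WT-labelled library.

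Without these cells, 1230 of 10277 genes (12%) were higher and 644 (6.27%) lower in the FKO-labelled library, so the number of calls was not smaller than with them. The nuclear-retained median was then 0.71, the respiratory chain median -0.59 and the median of the integrated stress response 0.53, each further from 0 than with all cells. The neuronal median was -0.24, the serotonergic median -0.22 and the endoplasmic reticulum median 0.29 with no gene higher, each nearer to 0. The serotonergic bounds, -0.46 to 0.06, then took in 0. Of the 14 serotonergic genes 1 was higher and 3 were lower, against 12% and 6.27% of all genes. The ribosomal protein genes went from a median of -0.01 to -0.30. FEV had a log2 ratio of -0.66, GATA3 of -0.44 and TPH2 of -0.11 without them. FEV was found in 59.5% of the thinned other members against 78.3% of the other cells at 5% to 10%, and TPH2 in 21.9% against 23.3%. Across the 8437 genes tested in both libraries, the correlation of the log2 ratios was 0.416. With the WT-labelled members above 15% in place of all of them it was 0.711 over 8412 genes, the highest of the 3 correlations between the libraries.

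Markers of other cell types differed by list. Floor plate genes, a list that includes FOXA2, summed to 60.2 CPM in the FKO-labelled members against 96.7 CPM, with 3 of 4 tested genes lower, against 4.41% of all genes. With the minimum in both bands 2 of 3 were lower there, against 4.02%. The list summed to 51.6 CPM against 53.1 CPM in the WT-labelled library. SPON1, its most abundant gene, fell from 35.2 to 21.3 CPM in the FKO-labelled library, with a log2 ratio of -0.06 after weighting to the members' depth. The list's FKO-labelled median of -0.78 was -0.34 with 2 lower after that weighting, against 322 of 10538 of all genes. Above 15% it was -0.03 with none lower, against 1849 of 10645. Mesenchymal genes summed to 187.8 CPM against 260.8 CPM in the FKO-labelled library, where 4 of 5 tested genes were lower, against 4.41%, and to 25.6 CPM against 36.8 CPM in the WT-labelled library. The collagen COL1A1 fell from 79.5 to 16.5 CPM, while COL1A2 had 134.7 CPM against 103.2 CPM. Without the glial marker cells COL1A2 had 16.4 CPM against 78.9 CPM, a log2 ratio of -2.26, and 5 of 5 tested genes were lower, against 6.27%. With the minimum in both bands 2 of 3 were lower, against 4.02%, as LUM and DCN passed at 5% to 10% only. The collagen COL4A1 and FN1, not of this list, were higher among the FKO-labelled members and are given with the extremes below. Cycling genes summed to 41.5 CPM against 73.5 CPM in the WT-labelled and 78.2 CPM against 82.1 CPM in the FKO-labelled library. Progenitor genes had medians of 0.13 over 6 and 0.40 over 7 tested genes, and of 0.07 over 5 and 0.19 over 4 with the minimum in both bands. VIM, the most abundant, had 532.3 CPM against 705.9 CPM and 1371 CPM against 1040 CPM. Without the glial marker cells the FKO-labelled median of this list was -0.20, and VIM was at 705.3 CPM with a log2 ratio of -0.24. Markers of other neurons had 1 tested gene in each library, with log2 ratios of -0.24 for TH and 0.13 for LHX1. No gene of the pluripotency list or of the blood and endothelium list reached the minimum, and PTPRC, CDH5 and TDGF1 had 0 UMIs in the members of both libraries. The part of these cells in the results above was not tested beyond the comparison without the glial marker cells.

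Named genes of both libraries were the 12 highest and the 12 lowest among 3019 genes with at least 50 CPM, ranked by the smaller of the 2 log2 ratios. Of the 3019, 564 were above 0 in both libraries with and without matching for depth, and 1176 were below 0. MTATP6P1 (ENSG00000248527) led the higher genes, from 682.3 to 1095 CPM and from 489.7 to 1168 CPM, with log2 ratios of 0.68 (0.66 to 0.70) and 1.25 (1.20 to 1.31). It is a nuclear pseudogene nearly identical to MT-ATP6, so its count is uncertain because reads of the mitochondrial gene may be assigned to it. UMIs of MT-ATP6 are part of the share that chose the members. The rise of MTATP6P1 may therefore repeat that choice and is not read as a finding. MIAT followed, with log2 ratios of 0.44 and 0.69, and then CADM1, an adhesion molecule, with 0.39 and 0.44. PTPRS, a receptor phosphatase of axons, rose from 140.3 to 215.5 CPM in the FKO-labelled library and had 92.3 CPM against 71.2 CPM in the WT-labelled library. The other 8 were PAM, which amidates peptides, the surface proteins CD47 and ADGRG1, the matrix protein NCAN, APC2, PGAP1, PNRC1 and the noncoding RNA RMST. Their log2 ratios lay between 0.32 and 0.40 in the WT-labelled library and between 0.34 and 0.48 in the FKO-labelled library. With weighting to the members' depth the FKO-labelled values of NCAN, RMST and APC2 were 0.01, 0.03 and 0.09, and PTPRS, at 0.38, was no longer called. PNRC1 turned to -0.35 in the FKO-labelled library without the glial marker cells and to -0.17 with every cell weighted equally.

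BNIP3 led the lower genes, with log2 ratios of -0.67 (-0.73 to -0.62) and -0.63 (-0.87 to -0.40). TCEAL5 had the largest difference of these genes in the FKO-labelled library, from 90.05 to 35.2 CPM, with 39.6 CPM against 51.9 CPM in the WT-labelled library. NEFM and NEFL, chains of the neurofilament, had log2 ratios of -0.46 and -0.42, and of -0.39 and -0.63. POLE4, a small subunit of DNA polymerase epsilon, fell from 66.3 to 37.04 CPM, and PPP1R1A, an inhibitor of protein phosphatase 1, from 108.2 to 53.5 CPM in the FKO-labelled library. The other 6 were the glycolytic enzyme PGAM1, the nucleoside diphosphate kinase NME1, GTF3A, which binds the genes of 5S ribosomal RNA, FAM133A, TMEM97 and ZCCHC12. Their log2 ratios lay between -0.36 and -0.31 in the WT-labelled library and between -0.67 and -0.42 in the FKO-labelled library. With weighting to the members' depth the FKO-labelled values of PGAM1, NEFM and NME1 were -0.07, -0.17 and -0.25. GTF3A, TMEM97 and ZCCHC12, at -0.29, -0.49 and -0.46, were no longer called.

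**Figure D4:**
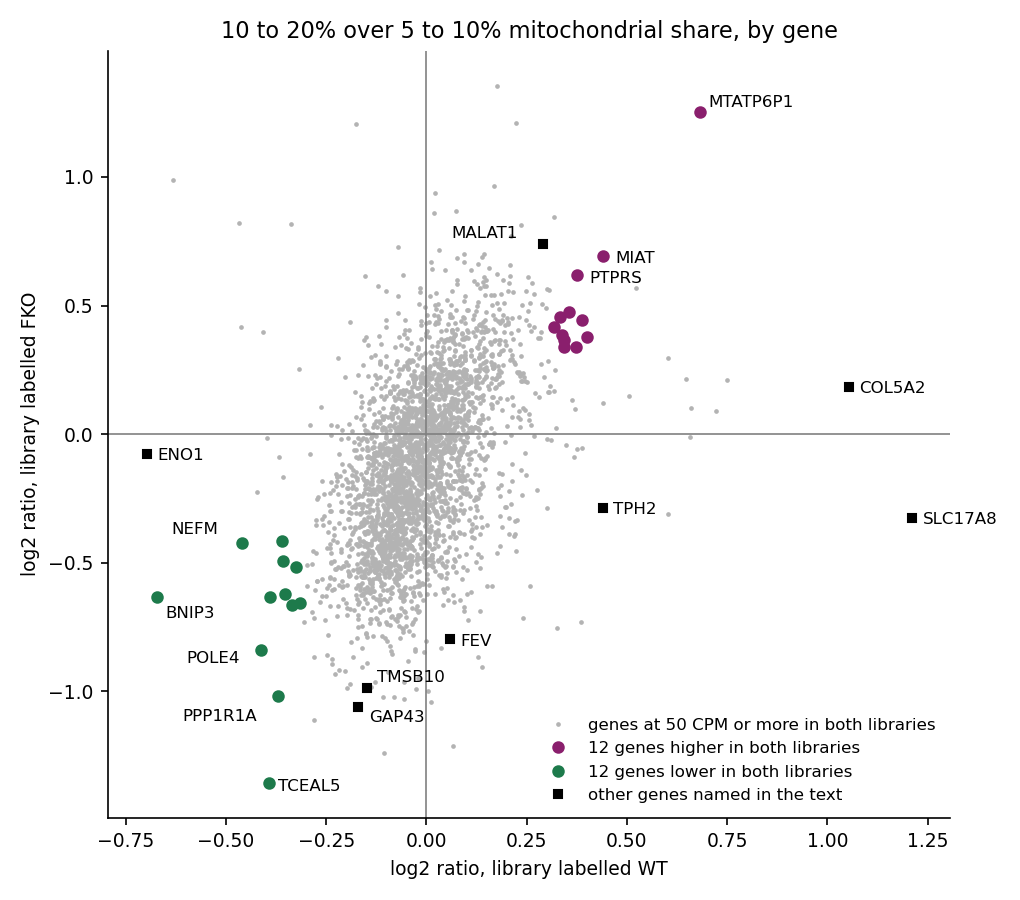
Log2 ratio of CPM in the members over the 5% to 10% cells in the WT-labelled library (x axis) and in the FKO-labelled library (y axis), for genes with at least 50 CPM in both; coloured points are the 12 highest and 12 lowest named genes, and black squares are other genes named in the text. MTATP6P1 lies at 0.68 and 1.25, BNIP3 at -0.67 and -0.63, and SLC17A8 at 1.21 and -0.32.

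Genes at the extremes of a single library were named after their values were seen. SLC17A8 (ENSG00000179520), the vesicular glutamate transporter of a subset of serotonin neurons, had the highest log2 ratio of the WT-labelled library among genes with at least 50 CPM, and went up from 179.2 to 414.9 CPM (log2 ratio 1.21, 1.18 to 1.25). FKO-labelled members had 123.5 CPM of SLC17A8, against 154.6 CPM. Across the WT-labelled bins from 5% to 20%, SLC17A8 stood at 127.5, 213.5, 401.1, 504.2, 411.6 and 225.5 CPM, highest at 12.5% to 15% like TPH2 and GATA2. It was found in 32.9% of thinned WT-labelled members against 18.7% of the 5% to 10% cells, 51.8% and 42.8% unthinned, and in 12.8% of thinned cycling cells. Of the thinned FKO-labelled cells 9.57% and 12.9% held SLC17A8. With limits at the same multiples of the median share its WT-labelled log2 ratio was -0.54. COL5A2, a fibrillar collagen, rose from 74.2 to 153.9 CPM in the WT-labelled library, with a log2 ratio of 0.18 in the FKO-labelled library.

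Among FKO-labelled genes with at least 50 CPM in either band, A2M, ITGA1, CDH19 and APLNR had the highest ratios, but passed that limit in the members only. A2M, a protease inhibitor of blood plasma, rose from 10.9 to 59.5 CPM, and CDH19, a cadherin of the Schwann cell lineage, from 11.5 to 60.6 CPM. Only COL4A1 and FN1 of the 20 highest had at least 50 CPM in both bands. COL4A1, a collagen of basement membranes, rose from 55.8 to 253.3 CPM, and FN1, or fibronectin, from 68.1 to 283.6 CPM. COL4A1 and FN1 had log2 ratios of 1.32 and 0.99 without the glial marker cells, but were no longer among the genes with at least 50 CPM. None of the 20 highest genes with all cells was among the 20 highest without these cells. The top log2 ratio was then 1.345, against 2.453 with all cells. ERBB3, a receptor of glial growth factors, rose from 23.5 to 96.2 CPM. The part that glia have in these values was not tested. Among genes with at least 50 CPM without the marker cells, MTATP6P1 had the highest ratio, at 1251 CPM against 492.5 CPM. Its rise may repeat the choice of cells, as given above. The glutamate receptor subunit GRIK2 followed, at 341.0 CPM against 157.2 CPM. FTX, a nuclear noncoding RNA, had 524.6 CPM against 267.2 CPM, and GOLGA8A, a golgin, 163.4 CPM against 80.8 CPM. With all cells and weighting to the members' depth GRIK2, FTX and GOLGA8A had log2 ratios of 0.44, 0.32 and 0.31.

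The sum of each list by bin shows where these differences lie. MALAT1 made up 61219 of the 62160.5 CPM of the nuclear-retained list at 5% to 10% in the WT-labelled library and 59980 of 62748.5 CPM in the FKO-labelled library, so this list's course is that of MALAT1. In both libraries the nuclear-retained list was higher and the respiratory chain list lower in the upper bins. In the WT-labelled library most of this lay above 12.5%, and in the FKO-labelled library most of it lay between 10% and 15%. Above 15% the serotonergic medians were 0.20 in the WT-labelled and -0.21 in the FKO-labelled library, with FEV at -0.30 and -1.15. FEV was therefore below the 5% to 10% cells in the upper members of both libraries.

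**Figure D5:**
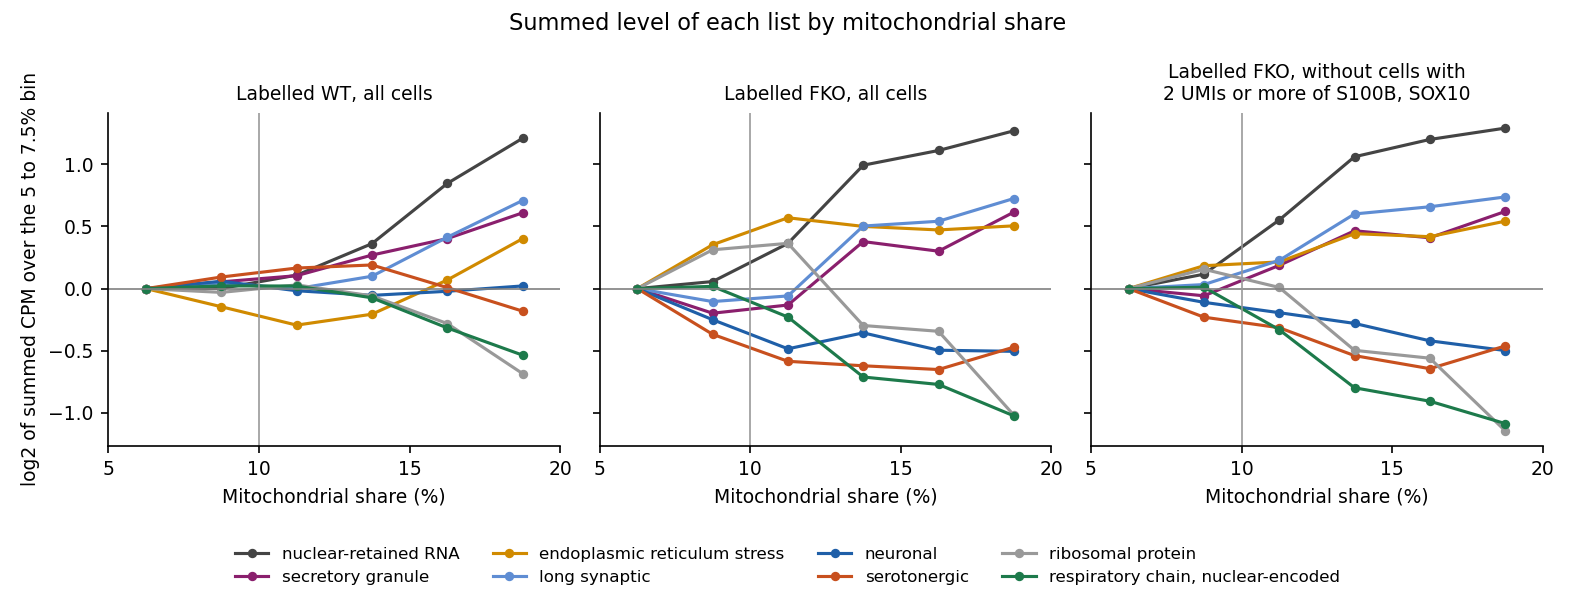
Log2 of the summed CPM of each list over its value at 5% to 7.5% (y axis), by mitochondrial share in percent (x axis, 6 bins of 2.5 points), for all cells of each library and for the FKO-labelled library without cells with at least 2 UMIs of S100B and SOX10; the vertical line marks 10%. Nuclear-retained RNA, mostly MALAT1, is the highest list in the last bin of each panel, and ribosomal protein genes are the lowest or nearly so.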

How the data were processed

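Per the file headers, the deposited matrices hold UMI counts made by the authors with Cell Ranger (7.0 in the notes, 7.1.0 in the header) on GRCh38, with 61487 features and 37 mitochondrial genes. The members and the 26 gene lists were chosen with earlier results of these data known. UMIs were summed over the cells of a band and divided by the non-mitochondrial total. Genes with at least 10 CPM in either band were tested, where tested means compared by fold, and called from 1.5-fold. A count of 0 stood at 3 UMIs as a bound, and gave no ratio where that bound pointed toward the band with 0. A ratio has the exact conditional interval of both counts, and a list median has the medians of its members' bounds. Named genes are those of the lists, the targeted and reporter genes, the 12 highest and 12 lowest ratios in both libraries, and extremes of 1 library named after their values were seen. Doublets were scored with Scrublet in scanpy 1.11.5. Python 3.11.15, numpy 2.4.6, scipy 1.17.1, pandas 2.3.3 and matplotlib 3.10.9 were used. Gene lengths came from GENCODE release 29. Alternatives changed the cell limits, doublets, depth weighting, cell weighting, bands, cell type, scaling, minimum and fold. Barcodes below the UMI and gene limits were left out, and a few genes are not reported here.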

Additional observations from a re-analysis of the deposited data

Results flagged for a closer look

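These results were marked because their directions or sizes differed between the libraries, given as FKO-labelled minus WT-labelled log2 ratios. The difference was not tested, since there is 1 library per genotype. It was -0.40 for the serotonergic list median (0.06 and -0.34) and 0.52 for the endoplasmic reticulum list median (-0.12 and 0.40). For TPH2 it was -0.73 (0.44 and -0.29), for FEV -0.86 (0.06 and -0.80), for GATA3 -0.74 (0.15 and -0.59) and for SLC17A8 -1.54 (1.21 and -0.32). The share counted on the 13 mRNAs, chosen after seeing the data, takes in other cells, since 1106 of its 1305 upper WT-labelled cells were above 20% on all mitochondrial genes and 2325 of its 4072 lower ones were members. It gave log2 ratios of FEV at -1.18 in the WT-labelled and -0.70 in the FKO-labelled library. GATA3 then had -0.54 and -0.17, and TPH2 -0.10 and 0.38. The medians were -0.09 and 0.03 for the serotonergic list and 0.80 and -0.09 for the endoplasmic reticulum list. Each of these differences was opposite in direction to the one above, but the WT-labelled side of it is mostly not one of the members. The 10% limit stood at 1.093 and 1.798 times the libraries' median shares, and genotype, line and library cannot be told apart.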

How the results depend on the processing

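Of 216 planned and added comparisons of the main results with an alternative, 142 stayed the same, 71 moved and 3 reversed. Of 1366 such comparisons of the other results, 928 stayed the same, 418 moved and 20 reversed. Reversed is used only where the sign changed and the reported gene was called, or the interval of the reported list or share left out 0. Other changes of sign count as moved, or as the same where they stayed within the interval. No paired analysis was possible because there is 1 library per genotype. The cause of each shift was not tested.

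Under at least 2000 UMIs and 1000 genes the FKO-labelled members were 7.11% of passing cells, with a depth log2 ratio of -1.04 and a nuclear-retained median of 0.49. Weighting to the members' depth gave 9 lower genes in the WT-labelled library, and a neuronal median of -0.30 and a nuclear-retained median of 0.28 in the FKO-labelled library. With every cell weighted equally 53 genes were higher and 12 lower in the WT-labelled library, with neuronal, nuclear-retained and serotonergic medians of -0.13, 0.42 and 0.0158. In the FKO-labelled library 2150 were higher and 1176 lower, with a nuclear-retained median of 0.97.

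Against cells with 7.5% to 10%, 14 genes were higher and 3 lower in the WT-labelled library, with a serotonergic median of 0.0266. In the FKO-labelled library the neuronal median was -0.24 and the serotonergic median -0.0104. For members between 10% and 15% the nuclear-retained medians were 0.0282 and 0.45, and the WT-labelled ribosomal protein median was 0.0193. For those above 15%, 841 genes were higher and 207 lower in the WT-labelled library, where the medians were 0.27 for endoplasmic reticulum genes, 0.10 for heat shock, -0.0539 for neuronal, 0.85 for nuclear-retained, 0.20 for serotonergic and 0.11 for stress genes. In the FKO-labelled library 2666 were higher and 1849 lower, with a neuronal median of -0.54 and a nuclear-retained median of 1.12.

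With FEV-positive cells only, the FKO-labelled neuronal and nuclear-retained medians were -0.28 and 0.51; this setting fixes FEV itself. With the median ratio set to 0, 727 genes were lower in the FKO-labelled library. With MALAT1 and ribosomal protein genes out of the totals, the FKO-labelled nuclear-retained median was 0.73 and the WT-labelled ribosomal protein median 0.0014. A minimum of 50 CPM gave 11 higher and 4 lower genes with a serotonergic median of 0.0209 in the WT-labelled library, and 221 and 237 genes in the FKO-labelled library. With no minimum other than 3 UMIs these were 2493 and 2221, and 6771 and 1724, with an FKO-labelled glia median of -0.12. A fold of 2 left 2 and 2, and 361 and 35.

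The other alternatives were chosen after seeing the data. Without the glial marker cells the FKO-labelled neuronal median was -0.24. With at least 10 CPM in both bands 722 genes were higher in the FKO-labelled library and 11 lower in the WT-labelled library. With the WT-labelled counts thinned to the FKO-labelled totals 146 were higher and 98 lower. With the share counted on the 13 mRNAs, the cells above 10% were 12.3% and 4.54% of passing cells, with depth log2 ratios of -1.75 and -1.47. In the WT-labelled library 2166 genes were then higher and 1455 lower, GATA2 was at -0.59 and SLC17A8 at -0.68. Its medians were 0.80 for endoplasmic reticulum genes, 0.0851 for glycolysis, 0.11 for heat shock, -0.13 for neuronal, 1.10 for nuclear-retained, -0.33 for p53 and -0.0944 for serotonergic genes. In the FKO-labelled library 2541 were higher and 2081 lower. Its medians were -0.0925 for endoplasmic reticulum genes, -0.58 for glia, -0.13 for the integrated stress response, -0.32 for neuronal, 1.06 for nuclear-retained, 0.0271 for serotonergic and -0.28 for stress genes.

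Limits at the same multiples of the median change the WT-labelled library only. The upper cells, of which 1101 of 1454 were above 20%, were then 13.7% of passing cells, with a depth log2 ratio of -1.70, 2198 genes higher and 1269 lower. GATA2 was at -0.47 and SLC17A8 at -0.54. The medians were 0.79 for endoplasmic reticulum genes, 0.0112 for glycolysis, 0.13 for heat shock, 1.20 for nuclear-retained, -0.50 for p53 and -0.0479 for serotonergic genes. The limits of these data are the single library per genotype, a rule that takes different parts of each library's distribution, counts of 3' ends only, and cell groups known from few UMIs.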

Other observations

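BNIP3 had its highest values below the members in both libraries. Across the bins from 5% to 20%, BNIP3 stood at 259.3, 175.4, 132.2, 135.1, 120.2 and 111.8 CPM in the WT-labelled library. In the FKO-labelled library BNIP3 stood at 96.1, 83.3, 66.8, 59.0, 38.7 and 61.0 CPM.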
